A study of Mus musculus with 7 samples.

Results

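The fibroblast growth factor (FGF) genes of the mouse uterus were examined in 7 RNA sequencing libraries: the ligands, the receptors, and the genes that FGF signalling induces to restrain or carry out its effects. The members were every listed symbol made of Fgf and a number (22 ligands), the receptor genes Fgfr1 to Fgfr4, Fgfrl1 and the binding protein gene Fgfbp1 (6 genes), and 10 feedback genes (Spry1 to Spry4, Spred1, Spred2, Dusp6, Etv4, Etv5 and Il17rd). Together these were 38 of the 24964 gene symbols in the deposited table. The tissue was whole uterus from mice aged 12 weeks, collected in diestrus, a phase of the estrous cycle. The 3 control libraries (replicates 1, 2 and 4) carried the genotype Pgrcre/+. The other 4 (replicates 1 to 4) carried Pgrcre/+Foxl2LsL/+ and are called the libraries labelled Foxl2-LSL. The Pgrcre allele, present in all 7 libraries, expresses Cre recombinase from the progesterone receptor locus, so recombination is limited to cells in which that gene is or has been active. The labels do not state the strain, the site of the Foxl2LsL allele or whether each library came from a single animal, so the p-values measure the spread between these samples only.

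FGF ligands bind receptor tyrosine kinases together with heparan sulfate, and the receptors signal through the RAS-ERK cascade. Sprouty and Spred proteins, the phosphatase DUSP6 and the membrane protein encoded by Il17rd (also called Sef) restrain that cascade, and the ETS factors encoded by Etv4 and Etv5 act downstream of it. In the uterus, stromal FGFs are known to act on epithelial receptors to promote epithelial growth, and the progesterone-induced transcription factor HAND2 is known to hold down stromal FGF genes.

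Values are FPKM, fragments scaled to gene length and to the total of the library, so levels can be compared between genes. Fold changes are given as differences in log2(FPKM + 1), which understates the change of low genes. A gene is said to have risen or fallen where limma gave a Benjamini-Hochberg adjusted p under 0.05 over the 13334 genes with a mean of at least 1 FPKM. Each library held 47800000 to 67300000 fragments, of which 35547125 to 51720976 lay on listed genes. Foxl2 itself was at 11.1, 19.3 and 12.9 FPKM in the controls and 12.7, 14.3, 14.8 and 17.2 FPKM in the libraries labelled Foxl2-LSL. Its log2 fold change was 0.06 (SE 0.18; adjusted p 0.818), with a 95% interval of -0.36 to 0.48. A rise of Foxl2 was thus not seen in the table, and directions refer to what the libraries are labelled as. The antisense gene Foxl2os was at 23.6, 37.5 and 22.6 FPKM in the controls and at 4.72, 6.75, 5.50 and 5.87 FPKM in the other group. In GENCODE M21 its exons overlap those of Foxl2 by 12 bases, and the Foxl2 exons cover 3256 bases. How far Foxl2os fragments enter the Foxl2 value was not tested. Epithelial, stromal and smooth muscle markers each summed to at least 766 FPKM in every library. Bulk tissue cannot tell fewer cells of a type from less RNA per cell.

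Of the 38 FGF genes, 19 reached the level needed for a test and 19 did not. Among the 19 tested, 9 rose and 2 fell in the libraries labelled Foxl2-LSL, where 16.7% of all tested genes rose and 23.9% fell (40.6% in either direction). The rises were those of Fgfr1, Spry2, Fgfrl1, Fgf7, Fgf10, Fgf11, Fgf2, Spred1 and Dusp6, and the falls were those of Fgfr3 and Spry4. The median log2 fold change of the 19 genes was 0.31, against -0.05 over all tested genes. The groups did not overlap in 9 of the 19, a share close to the 47.6% of all tested genes. Fgf2 and Fgf7 passed the filter through the libraries labelled Foxl2-LSL and Fgfr3 through the controls, so these 3 were bound to differ and the counts are given as description. The split of calls over all genes depended on scaling: 41.1% of called genes rose with FPKM as deposited and 52.3% with limma-voom on recovered fragments. Among the FGF genes that fit, which called 39.7% of all genes, gave 9 rises and 1 fall. An exact two-sided permutation test of 3 against 4 libraries cannot go below 0.0571, which was its p for each of the 9 tested FGF genes whose groups did not overlap.

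Of the 11 calls, 7 depended on single libraries. Fgfr1, Spry2, Fgf7 and Fgf11 kept direction and call in every alternative run. Of these, Fgf7 passed the filter through the libraries labelled Foxl2-LSL and was bound to differ, so its calls are given as description. The count of 11 called genes became 10 without control 1, 6 without control 2, 7 without control 4, and 7, 7, 4 and 6 without the libraries labelled Foxl2-LSL 1, 2, 3 and 4. Over all tested genes the same fits called 4880, 3853 and 5328 genes without control 1, 2 and 4, and 4741, 4837, 3975 and 4173 without Foxl2-LSL 1 to 4, against 5409, so calls were fewer over all genes too. Fgf2 kept its call only without Foxl2-LSL 2, and Fgfr3 and Spry4 only without control 1. Fgf10 lost it without control 1 or 2 or Foxl2-LSL 2, 3 or 4, and Fgfrl1 without control 2 or 4 or Foxl2-LSL 1, 3 or 4. Spred1 lost its call without control 4 or Foxl2-LSL 3, and Dusp6 without Foxl2-LSL 2 or 3. No called gene changed direction.

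**Figure D1:**
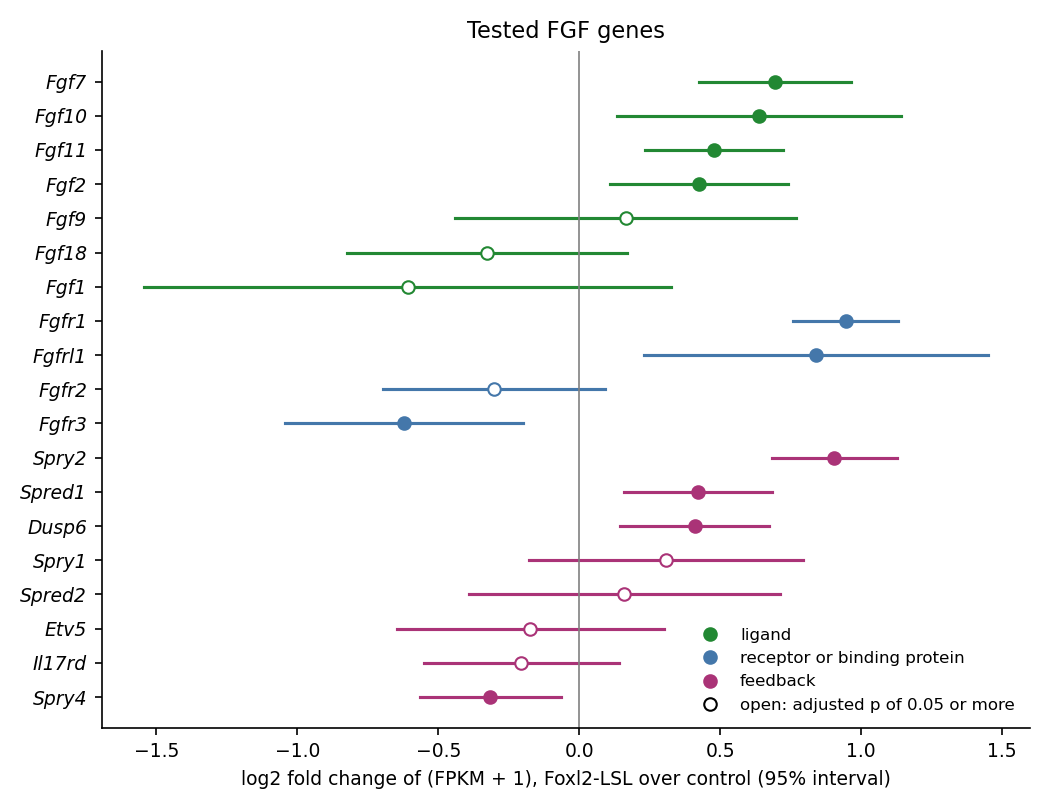
Log2 fold change of (FPKM + 1) in the libraries labelled Foxl2-LSL over controls for the 19 tested FGF genes, by role. Lines are 95% intervals from limma, filled points have an adjusted p under 0.05 and open points do not; Fgfr1 and Spry2 lie farthest above 0, and Fgfr3 farthest below it among called genes.

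Among the ligands, Fgf7, Fgf10, Fgf2 and Fgf11 rose, and Fgf1, Fgf9 and Fgf18 did not pass the test. Fgf7 (chromosome 2, 126034658 to 126091185, plus strand, GRCm38) and Fgf10 (chromosome 13, 118669791 to 118792115, plus strand, GRCm38) encode the closely related mesenchymal ligands of the epithelial form of FGFR2. Fgf7 stood at 0.726, 0.957 and 1.25 FPKM in controls 1, 2 and 4, and at 2.11, 2.04, 2.39 and 2.19 FPKM in the libraries labelled Foxl2-LSL. The groups were well apart, with means of 0.979 ± 0.265 (SD, n = 3) and 2.19 ± 0.151 FPKM (SD, n = 4), a ratio of 2.23. The log2 fold change was 0.69 (SE 0.12; adjusted p 0.00318). Fgf7 passed the filter through the libraries labelled Foxl2-LSL, so these values are given as description.

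Fgf10 was at 0.635, 1.26 and 1.74 FPKM in the controls against 1.62, 2.70, 3.18 and 2.16 FPKM. Control 4 lay just above Foxl2-LSL 1, so the groups overlapped, and the log2 fold change of 0.64 (SE 0.22; adjusted p 0.0488) was close to the threshold. Over its alternatives the adjusted p ran from 0.0220 to 0.132. The 5 adipocyte markers summed to 0.053, 2.02 and 19.9 FPKM in the controls and to 0.835, 34.8, 62.8 and 5.35 FPKM in the other group. Fgf10 was highest in the same libraries, Foxl2-LSL 2 and 3, and lowest in control 1. With an adipocyte score as a covariate, chosen after seeing the data, the Fgf10 log2 fold change was 0.42 (adjusted p 0.0436) and that of Fgf7 was 0.63 (adjusted p 0.00736).

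Fgf2 encodes a ligand that signals through several receptors and lacks a classical secretion signal. It was at 0.772, 1.03 and 0.965 FPKM in the controls and at 1.84, 1.11, 1.54 and 1.86 FPKM in the libraries labelled Foxl2-LSL. No library of one group reached into the range of the other, and the log2 fold change was 0.42 (SE 0.14; adjusted p 0.0401). Fgf2 too passed the filter through the libraries labelled Foxl2-LSL, so these values are given as description. The table counts Fgf2 over only 695 bases, 10.2% of its annotated exon length in GENCODE M21, and as few as 34 fragments lay on it in a library. Nudt6 overlaps Fgf2 exons on the opposite strand and was also higher, at 5.95 to 7.26 FPKM in controls and 7.79 to 8.76 FPKM in the other group. The sources do not say whether strand was used in counting, and its part in the Fgf2 value was not tested.

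Fgf11 belongs with Fgf12, Fgf13 and Fgf14 to the intracellular FGF homologous factors, which bind sodium channels and are not secreted. Fgf11 rose from 2.34, 2.28 and 1.96 FPKM to 3.88, 3.40, 2.88 and 3.67 FPKM, with no overlap (log2 fold change 0.48, SE 0.11; adjusted p 0.00962). Fgf12 and Fgf13 were below the filter, with every library under 0.78 FPKM. Fgf12 was at 0.204 to 0.306 FPKM in controls and 0.545 to 0.775 FPKM in the libraries labelled Foxl2-LSL. When the filter was lowered to a mean of 0.1 FPKM, Fgf12 rose by a log2 fold change of 0.39 (adjusted p 0.00480) and Fgf13 by 0.24 (adjusted p 0.0466). Fgf14, at 0.060 to 0.146 FPKM over the 7 libraries, had a log2 fold change of 0.01 (adjusted p 0.852) in that fit, which called 36.2% of its genes.

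Fgf1, which can bind every FGF receptor, was the most abundant ligand in the controls. It was at 15.1, 17.9 and 19.3 FPKM there and at 14.6, 10.1, 4.65 and 20.6 FPKM in the libraries labelled Foxl2-LSL. The latter both exceeded and undercut the controls, so the log2 fold change of -0.61 (SE 0.40; adjusted p 0.260) was smaller than the spread, with a 95% interval of -1.54 to 0.33. The 4 mesothelium markers summed to 75.9, 65.6, 39.8 and 98.7 FPKM in the same 4 libraries, in the same order as Fgf1. In the controls they summed to 126, 105 and 75.6 FPKM, the reverse of the Fgf1 order. Their part in the Fgf1 level was not tested. With the adipocyte covariate the Fgf1 log2 fold change was -0.29 (adjusted p 0.544).

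Fgf9 and Fgf18 belong to ligand subfamilies that act mainly on the mesenchymal forms of the receptors. Fgf18 was at 5.005, 3.89 and 2.04 FPKM in the controls and at 2.38 to 2.95 FPKM in the other group, a log2 fold change of -0.33 (adjusted p 0.255). Control 4 alone lay below the libraries labelled Foxl2-LSL, and without it the value was -0.60 with an adjusted p of 0.00699. Fgf9 was at 2.71, 1.52 and 0.836 FPKM in the controls and at 2.35, 1.62, 1.24 and 2.58 FPKM in the other group (log2 fold change 0.17; adjusted p 0.640), and its sign turned to -0.08 without control 4. Control 4 was thus the lowest control for both ligands and the highest for Fgf7, Fgf10 and Fgf1. The same library stood apart in its summed markers: stroma 2139 FPKM against 1086 and 1625 in controls 1 and 2, smooth muscle 1643 against 900 and 827 FPKM, and epithelium 766 against 1337 and 953 FPKM. Their part in these ligand levels was not tested.

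All ligands together summed to 29.6, 31.15 and 29.2 FPKM in the controls. In the libraries labelled Foxl2-LSL they summed to 30.9, 26.3, 20.9 and 38.1 FPKM, and the ranges overlap. Without Fgf1 the sum was 14.5, 13.2 and 9.89 FPKM in the controls and 16.3, 16.3, 16.3 and 17.5 FPKM in the other group. Both sums include Fgf11 to Fgf14, which are not secreted. Fgf1 made up 51.1% to 66.1% of all ligand FPKM in controls and 22.2% to 54.0% in the others, ranges that overlap. Of the remaining ligands, Fgf16 (0.140 to 1.115 FPKM) and Fgf17 (0.135 to 0.511 FPKM) overlapped between the groups. Fgf3, Fgf4, Fgf5, Fgf8, Fgf20, Fgf21, Fgf22 and Fgf23 had at most 10 fragments in any library. Fgf6 and Fgf15, the latter an intestinal hormone, had 0 fragments in all 7 libraries, where 0 allows up to 3 fragments by counting error alone.

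**Figure D2:**
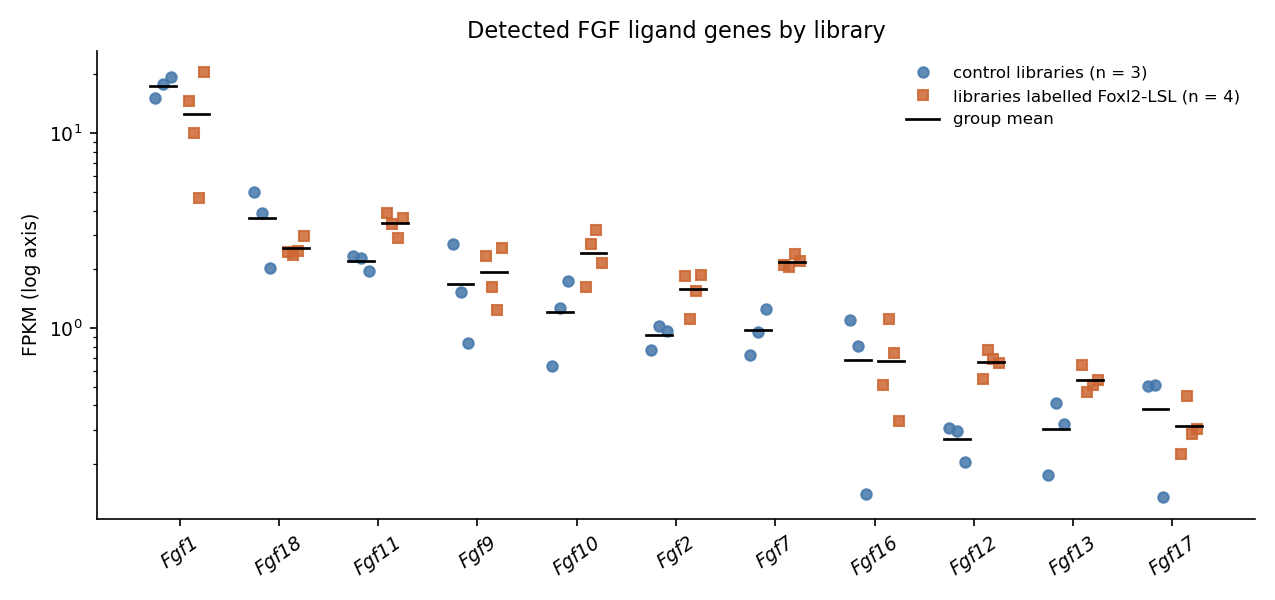
FPKM (log axis) of the 11 best detected FGF ligand genes in each library; points are libraries and bars are group means (3 controls, 4 libraries labelled Foxl2-LSL). Fgf7, Fgf11 and Fgf12 lie higher in every library labelled Foxl2-LSL than in any control, while Fgf1 spreads from 4.65 to 20.6 FPKM within the labelled group.

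To show the DNA next to the genes that rose, the 250 bases before the RefSeq start site (GRCm38.p6) are given 5′ to 3′ on the gene's strand for the ligand pair Fgf7 and Fgf10, the receptor gene Fgfrl1 and the feedback gene Spry2. RefSeq start sites were found for 28 of the 38 members. Capitals mark the forkhead core TGTTTAC or the ETS core CCGGAAG, each searched on both strands. The windows are chr2:126034408-126034657 (plus), chr13:118714449-118714698 (plus), chr5:108693979-108694228 (plus) and chr14:105896820-105897069 (minus).
Fgf7: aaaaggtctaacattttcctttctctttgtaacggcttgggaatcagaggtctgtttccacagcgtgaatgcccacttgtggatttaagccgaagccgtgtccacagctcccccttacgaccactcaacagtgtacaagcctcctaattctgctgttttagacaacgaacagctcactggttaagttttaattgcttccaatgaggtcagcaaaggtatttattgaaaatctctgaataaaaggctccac
Fgf10: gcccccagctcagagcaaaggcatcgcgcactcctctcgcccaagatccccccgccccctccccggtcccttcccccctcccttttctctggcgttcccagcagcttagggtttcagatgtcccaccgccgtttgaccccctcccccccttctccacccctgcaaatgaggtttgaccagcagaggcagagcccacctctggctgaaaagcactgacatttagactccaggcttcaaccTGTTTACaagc
Fgfrl1: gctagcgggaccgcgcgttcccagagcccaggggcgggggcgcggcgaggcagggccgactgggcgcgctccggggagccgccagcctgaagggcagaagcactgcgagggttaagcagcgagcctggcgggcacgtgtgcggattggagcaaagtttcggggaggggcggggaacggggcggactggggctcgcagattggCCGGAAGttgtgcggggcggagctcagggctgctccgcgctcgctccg
Spry2: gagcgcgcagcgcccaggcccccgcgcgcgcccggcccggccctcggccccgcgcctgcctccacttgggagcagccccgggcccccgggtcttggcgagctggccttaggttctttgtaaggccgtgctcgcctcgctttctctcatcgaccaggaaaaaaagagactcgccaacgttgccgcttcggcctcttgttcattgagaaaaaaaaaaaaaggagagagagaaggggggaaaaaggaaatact
The forkhead core, the kind of letters that forkhead factors such as FOXL2 can bind, was present in windows of 2 of the 28 genes, Fgf10 and Etv5. It was present in 3.17% of all 32851 windows. The 28 genes have 36 windows between them, so the count of genes and the share of windows are unlike measures. In Fgf10 it began 11 bases before this RefSeq start, which lies inside the GENCODE M21 gene (118669791 to 118792115). The ETS core was present in Fgfrl1 alone, and in 6.91% of all windows. It began 48 bases before a RefSeq start that also lies inside the GENCODE M21 gene (108692382 to 108706924). The Fgf7 window held 6 CG dinucleotides, the median of all windows, and the Fgfrl1 and Spry2 windows held 30 and 23. A match describes letters only, and the other windows merely lack these letters.

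Among the receptors, Fgfr1 rose and Fgfr3 fell, the decoy receptor gene Fgfrl1 rose, and Fgfr2 did not pass the test. Fgfr1 (chromosome 8, 25513654 to 25575718, plus strand, GRCm38), the main receptor of mesenchymal cells, was at 8.76, 8.48 and 7.78 FPKM in the controls. It was at 17.5, 17.5, 15.2 and 17.8 FPKM in the libraries labelled Foxl2-LSL. The groups did not approach each other: the means were 8.34 ± 0.506 (SD, n = 3) and 17.01 ± 1.22 FPKM (SD, n = 4), a ratio of 2.04. The log2 fold change was 0.95 (SE 0.08; adjusted p 0.000305), and over all alternatives it kept an adjusted p of at most 0.0130. At least 2566 fragments lay on Fgfr1 in each library.

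Fgfr2, whose splice forms divide epithelial from mesenchymal signalling, was the most abundant of the 4 kinase receptor genes in every library. Its level was 36.7, 24.4 and 29.8 FPKM in the controls and 20.7, 26.8, 29.2 and 20.6 FPKM in the other group, with overlap. The log2 fold change was -0.30 (SE 0.17; adjusted p 0.189), with a 95% interval of -0.70 to 0.09. The table gives one value per gene, so the splice forms were not separated.

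Fgfr3 (chromosome 5, 33721674 to 33737068, plus strand, GRCm38), a receptor best known as a brake on bone growth, was at 1.001, 2.11 and 2.39 FPKM in the controls. The 4 libraries labelled Foxl2-LSL were tightly grouped below them at 0.734, 0.804, 0.813 and 0.840 FPKM, and the log2 fold change was -0.62 (SE 0.18; adjusted p 0.0293). Fgfr3 passed the filter through the controls, so these values are given as description. Fgfr4, best known as the bile acid-regulating receptor of liver, was below the filter at 0.241, 0.345 and 0.601 FPKM against 0.073, 0.106, 0.037 and 0.067 FPKM. It had 245 fragments in the controls and 49 in the others. With limma-voom on recovered fragments and a mean of at least 0.1 FPKM, Fgfr4 fell by 2.38 on the log2 scale (SE 0.46, adjusted p 0.00625). That fit called 36.1% of its genes. The limma fit of log2(FPKM + 1) at the same filter gave Fgfr4 a value of -0.37 (adjusted p 0.014). Fgfr4 passed that filter through the controls (mean 0.396 FPKM, against 0.071 FPKM), so it was bound to differ and these values are given as description.

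Fgfrl1 (chromosome 5, 108692382 to 108706924, plus strand, GRCm38) encodes a receptor-like protein without a kinase domain. It was at 14.0, 9.76 and 7.42 FPKM in the controls and at 23.5, 13.1, 16.4 and 24.8 FPKM in the libraries labelled Foxl2-LSL. Control 1 lay above Foxl2-LSL 2, and the log2 fold change was 0.84 (SE 0.26; adjusted p 0.0367). Fgfbp1, which encodes a carrier that releases FGFs from the matrix, was near the limit of detection, at 0.037 to 0.071 FPKM and 0.073 to 0.198 FPKM, with 13 and 36 fragments in the groups, and was not tested.

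**Figure D3:**
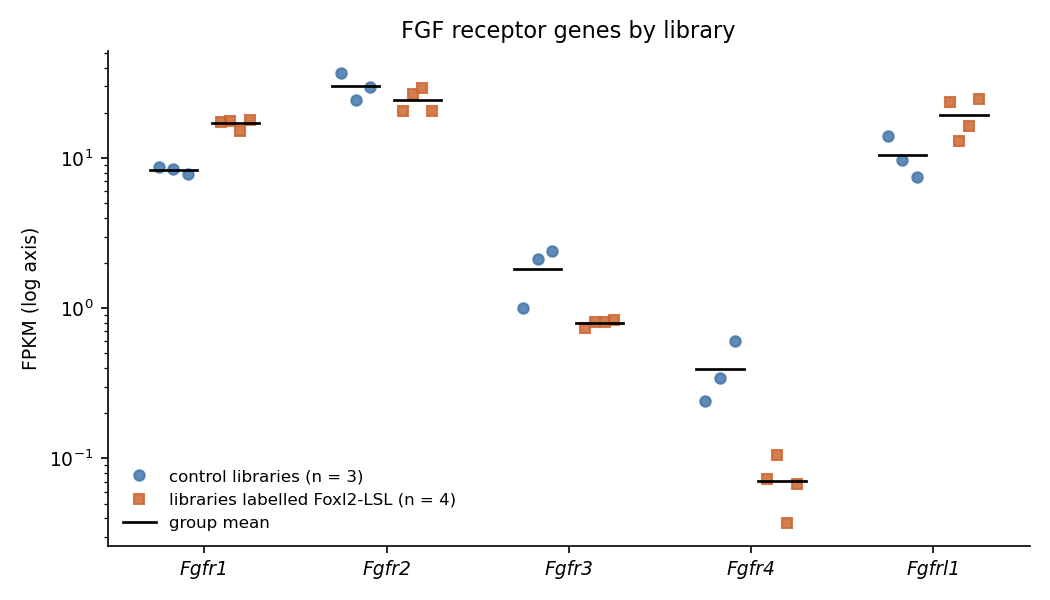
FPKM (log axis) of the FGF receptor genes in each library, with group means as bars (3 controls, 4 libraries labelled Foxl2-LSL). Fgfr1 is higher, and Fgfr3 and Fgfr4 are lower, in every library labelled Foxl2-LSL than in any control, while Fgfr2 and Fgfrl1 overlap.

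The makeup of the receptors within each library differed between the groups while the sums overlapped. Fgfr1 to Fgfr4 together summed to 46.7, 35.3 and 40.5 FPKM in the controls and to 39.0, 45.2, 45.2 and 39.4 FPKM in the libraries labelled Foxl2-LSL, overlapping ranges. Fgfr1 supplied 18.8%, 24.0% and 19.2% of that sum in the controls against 44.9%, 38.8%, 33.6% and 45.3%. The share of Fgfr2 was 73.7% ± 4.77 (SD, n = 3) and 57.3% ± 5.70 (SD, n = 4), and those ranges did not overlap either. The ratio of Fgfr1 to Fgfr2 was 0.239, 0.348 and 0.261 in the controls and 0.845, 0.654, 0.521 and 0.864 in the other group. A ratio within a library shows unequal change and does not depend on how the library was scaled.

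**Figure D4:**
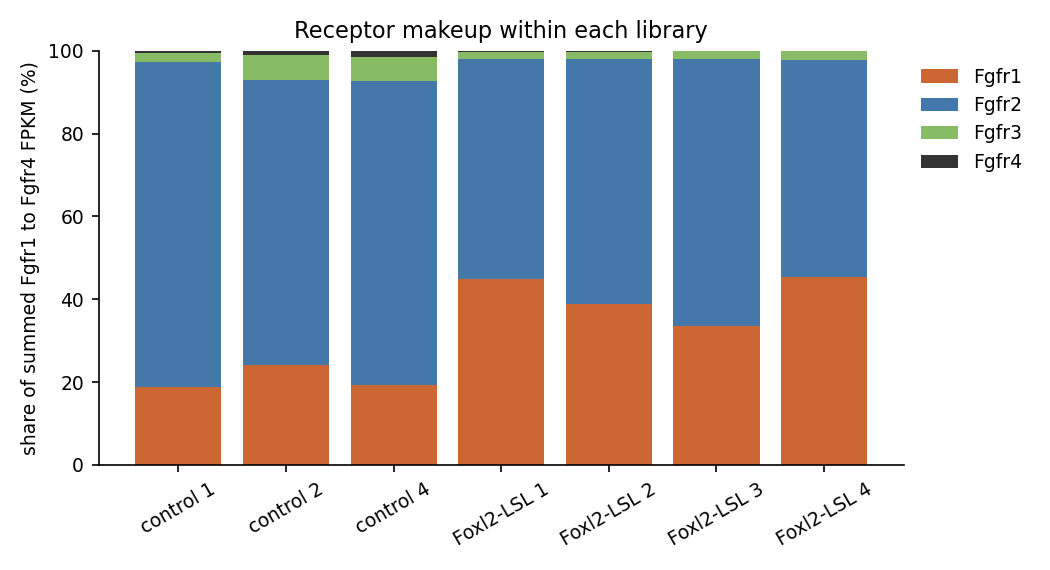
Share (%) of the summed Fgfr1 to Fgfr4 FPKM supplied by each receptor gene, 1 bar per library. The Fgfr1 share is 18.8% to 24.0% in the 3 controls and 33.6% to 45.3% in the 4 libraries labelled Foxl2-LSL.

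The feedback genes did not move as a block: Spry2, Spred1 and Dusp6 rose, Spry4 fell, and Spry1, Spred2, Etv5 and Il17rd did not pass the test. Spry2 (chromosome 14, 105891947 to 105896819, minus strand, GRCm38), a Sprouty inhibitor of RAS-ERK signalling, stood at 9.12, 10.9 and 8.48 FPKM in the controls. It reached 17.6, 19.7, 19.5 and 17.5 FPKM in the libraries labelled Foxl2-LSL, far above every control. The means were 9.50 ± 1.26 (SD, n = 3) and 18.6 ± 1.17 FPKM (SD, n = 4), a ratio of 1.96, and the log2 fold change was 0.90 (SE 0.10; adjusted p 0.000628).

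Its relatives differed. Spry4 was at 1.64, 2.16 and 2.23 FPKM in the controls and slightly lower, at 1.38, 1.34, 1.34 and 1.58 FPKM, in the other group, without overlap. The log2 fold change was -0.32 (SE 0.11; adjusted p 0.0489), and it missed the threshold in 13 of 16 alternatives. Spry1 was at 12.6, 8.97 and 6.22 FPKM against 9.70, 12.6, 13.1 and 10.1 FPKM, with control 1 inside the range of the other group (log2 fold change 0.31; adjusted p 0.270). Without control 1 the Spry1 value was 0.53 with an adjusted p of 0.0486, and without control 4 it was 0.08 (adjusted p 0.728). Spry3 was below the filter, at 0.120 to 0.302 FPKM in controls and 0.058 to 0.098 FPKM in the others. Its adjusted p was 0.0342 with limma-voom and 0.0631 with log2(FPKM + 1) at the lower filter. Spry3 passed the lower filter through the controls (mean 0.222 FPKM, against 0.080 FPKM), so these values are given as description. The ratio of Spry2 to Spry4 was 5.57, 5.05 and 3.805 in the controls and 12.8, 14.7, 14.6 and 11.1 in the libraries labelled Foxl2-LSL, so the Sprouty genes changed unequally within the libraries.

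Spred1, an inhibitor that recruits neurofibromin to RAS, rose from 8.78, 9.75 and 7.88 FPKM to 10.9, 14.5, 12.2 and 11.1 FPKM (log2 fold change 0.42, SE 0.11; adjusted p 0.0215). Dusp6, the phosphatase that removes the activating phosphates of ERK and a widely used readout of its activity, rose from 10.1, 9.76 and 7.16 FPKM to 11.8, 12.3, 12.9 and 11.7 FPKM. Every library labelled Foxl2-LSL lay above every control for both genes, and the Dusp6 log2 fold change was 0.41 (SE 0.11; adjusted p 0.0239). Spred2 ranged from 8.21 to 13.8 FPKM in controls and from 8.497 to 15.7 FPKM in the others (log2 fold change 0.16; adjusted p 0.621).

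The ETS factors, which are induced by FGF signalling in many tissues, gave no call. Etv5 was at 3.30, 6.35 and 4.81 FPKM against 3.26, 3.99, 5.45 and 3.72 FPKM (log2 fold change -0.17; 95% interval -0.65 to 0.30; adjusted p 0.528). Etv4 was below the filter at 0.712 to 0.953 FPKM and 0.765 to 0.848 FPKM. Il17rd was at 4.67 to 5.82 FPKM and 3.46 to 5.90 FPKM (log2 fold change -0.21; adjusted p 0.301). For these 3 genes the labelled group lay within or across the range of the controls.

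**Figure D5:**
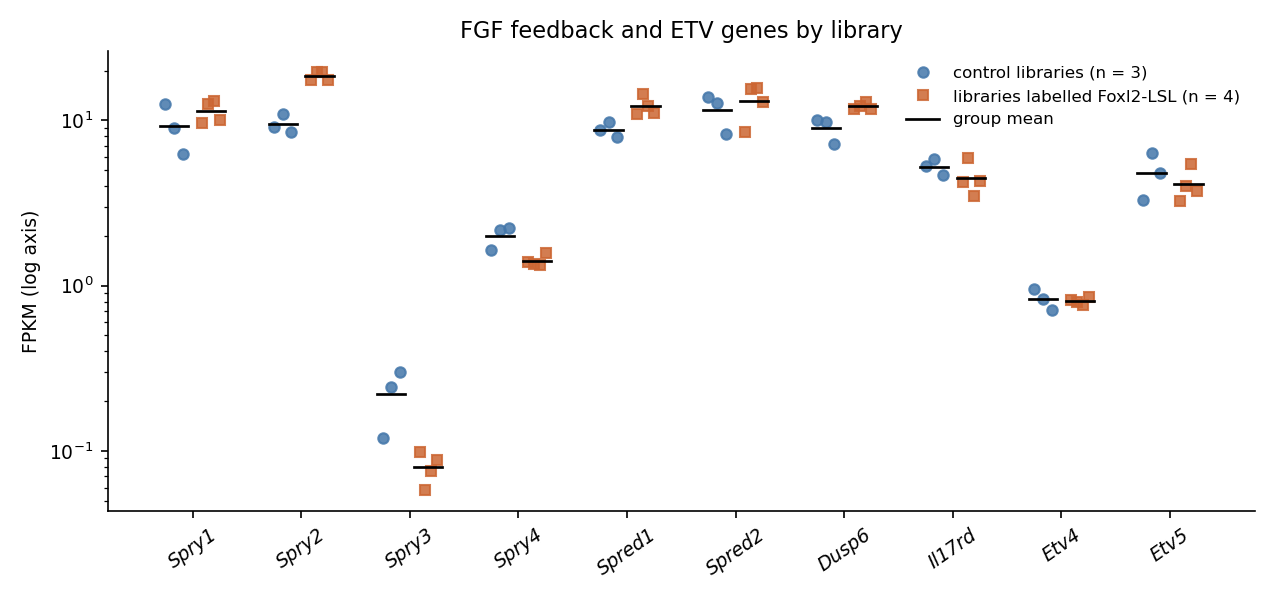
FPKM (log axis) of the 10 feedback and ETV genes in each library, with group means as bars (3 controls, 4 libraries labelled Foxl2-LSL). Spry2, Spred1 and Dusp6 lie higher and Spry3 and Spry4 lower in every library labelled Foxl2-LSL than in any control, and the other 5 overlap.

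Other genes of the pathway were read from lists of 76 genes, of which 70 were tested, 7 rose and 20 fell, and their median log2 fold change was -0.14. Among all tested genes 16.7% rose and 23.9% fell, so the 27 called of 70 are near the 40.6% called over all genes and are no result about the pathway. In the heparan sulfate list 8 of 19 tested genes fell and 1 rose, beside the same 23.9% and 16.7%; nothing particular to the list was tested. Gpc1, a glypican that presents FGFs to their receptors, fell from 37.5, 41.8 and 53.7 FPKM to 9.63, 9.98, 9.13 and 10.8 FPKM (log2 fold change -2.05, SE 0.12; adjusted p 0.000131). Gpc2 and Gpc6 fell by 0.93 and 0.89 on the log2 scale. Heparanase (Hpse), which cleaves heparan sulfate, rose from 2.31, 2.04 and 1.32 FPKM to 4.82, 5.09, 5.88 and 5.63 FPKM (log2 fold change 1.15; adjusted p 0.000896). The call of Gpc6 was lost without control 2 or Foxl2-LSL 1, 3 or 4.

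Among co-receptors and extracellular partners, 2 of 9 tested genes rose and 2 fell, counts near the 16.7% and 23.9% of all tested genes. Ncam1, an adhesion molecule that can bind FGF receptors, rose from 2.60, 2.29 and 1.06 FPKM to 7.87, 5.91, 8.22 and 8.02 FPKM (log2 fold change 1.54; adjusted p 0.00130). Flrt1, an FGF receptor-binding membrane protein, rose by 0.63, and Hspg2, the basement membrane proteoglycan perlecan, fell by 0.59 on the log2 scale. Sulf1, which trims sulfate groups from heparan sulfate, had a log2 fold change of -0.70 at an adjusted p of 0.0492, with overlapping groups, and over its alternatives the adjusted p reached 0.145. The call of Flrt1 was lost without Foxl2-LSL 4. That of Sulf1 was lost without control 2 or 4 or any 1 of the 4 libraries labelled Foxl2-LSL. The Klotho co-receptors of the hormone-like FGFs, Kl and Klb, were under 0.2 FPKM in every library.

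In the adaptors and the ERK cascade 2 of 22 genes rose and 5 fell, the falls near the 23.9% of all tested genes, and 15 did not pass the threshold. Braf rose by 0.45, while Map2k2 (-0.41) and Ptpn11 (-0.35), which encodes the phosphatase SHP2, fell on the log2 scale. Map2k2 lost its call without control 1 or Foxl2-LSL 3. Of 14 other ERK feedback and target genes 2 rose and 3 fell, again near the 16.7% and 23.9% of all tested genes. Ier3, an early response gene, rose from 16.1, 17.7 and 13.5 FPKM to 113, 50.5, 56.5 and 77.9 FPKM (log2 fold change 2.11; adjusted p 0.00111), and Shisa2 by 1.84. Ets1 fell from 13.3, 12.7 and 13.2 FPKM to 6.75, 7.32, 7.30 and 7.14 FPKM (log2 fold change -0.79; adjusted p 0.000249). Myc fell by 0.60, a call lost without control 2 or 4 or Foxl2-LSL 1, 2 or 4.

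HAND2, named above as a restraint on stromal FGF genes, was lower as a transcript: Hand2 was at 20.5, 24.9 and 35.7 FPKM in the controls and at 4.09, 5.53, 5.18 and 5.53 FPKM in the libraries labelled Foxl2-LSL (log2 fold change -2.18; adjusted p 0.000295). Ihh, the epithelial hedgehog ligand upstream of it, fell by 2.53. The other 4 genes of that list (Nr2f2, Muc1, Wnt4 and Bmp2) did not pass. The part of Hand2 in the FGF values was not tested.

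Marker levels of cell types moved with the groups beside these values. Summed cycling-cell markers were 60.7 to 142 FPKM in controls and 7.50 to 24.0 FPKM in the libraries labelled Foxl2-LSL (5 of 5 fell). Gland markers were 31.1 to 41.9 against 6.67 to 8.56 FPKM (2 of 3 tested fell), endothelial markers 95.2 to 132 against 64.4 to 71.0 FPKM (4 of 5 fell), and leukocyte markers 24.1 to 35.1 against 36.9 to 59.5 FPKM (1 of 4 tested rose). The summed markers of epithelium (766 to 1337 against 1018 to 1393 FPKM), stroma (1086 to 2139 against 1563 to 1775 FPKM) and smooth muscle (827 to 1643 against 1468 to 1913 FPKM) overlapped, with control 4 the highest control in stroma and smooth muscle and the lowest in epithelium. Within those sums 1 of 7 epithelial markers rose and 2 of 6 smooth muscle markers rose. Of the 7 stromal markers 1 rose and 3 fell. Among all tested genes 16.7% rose and 23.9% fell, and the marker counts are given beside those shares as description only. Dcn, a stromal matrix gene, was at 367 to 467 FPKM in controls and 922 to 1034 FPKM in the other group, and Hoxa10, a stromal transcription factor, at 42.0 to 123 against 22.6 to 27.8 FPKM; both were picked after their values were seen. Oviduct markers summed to 295 FPKM in control 2 and to at most 21.5 FPKM in the other libraries. The part of these cell types in the FGF values was not tested.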

How the data were processed

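The authors deposited 1 table of FPKM values (fragments scaled to gene length and library total) with a gene length for 24964 symbols and a column for each of the 7 libraries. The submitters' processing notes name STAR 2.5.2b, featureCounts 1.5.0-p1 and the build mm10; which annotation was counted, whether strand was used and what was filtered are not given in the sources used here. RNA was extracted with TRIzol, per the labels' protocols.

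Columns were matched to samples by their descriptions, and groups and replicate numbers came from the sample titles. log2(FPKM + 1) was fitted with limma 3.58.1 (R 4.3.3; lmFit, eBayes with an intensity trend) on all 7 libraries and all 13334 genes with a mean of at least 1 FPKM, with Foxl2 kept, and Benjamini-Hochberg adjustment over all of them at 0.05. Whole fragments were recovered from FPKM and length: 100% of 1653 to 1832 low values per library lay within 0.1 of a whole number. Each value therefore carries a counting error set by its fragments, which covers counting only. The fit was tested on simulated data (13334 genes): 170 of 200 genes given a log2 change of 1 were recovered and 7 unchanged genes were called. The simulated noise was independent between genes and few genes changed, whereas 40.6% of tested genes were called in these data. Its rates of recovery and error need not carry over to these data. Alternatives were pseudocount 0.1, mean FPKM filters of 0.1 and 5, no filter, a common sum, quantile normalization, limma-voom with trimmed mean scaling, each library left out, and a replicate block; 2 more were added after seeing the data. Gene models and coordinates are GENCODE M21 (GRCm38), matched by symbol for 37 of 38 members, and promoters are RefSeq GRCm38.p6. Figures used Python 3.11.15 and matplotlib 3.10.9.

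The members and lists were chosen with earlier results of these data known. Text names every member with a group mean of at least 1 FPKM or past the threshold, up to 4 genes per related list with the largest called change, and Foxl2 and Hand2. One gene that this rule names is not reported here.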

Additional observations from a re-analysis of the deposited data

Results flagged for a closer look

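Fgfr1 in the library labelled Foxl2-LSL 3 (15.2 FPKM) stood apart from the 17.5, 17.5 and 17.8 FPKM of the other libraries of its group. The gap to the nearest library was 0.867 of the range of the group, above Dixon's 95% critical value for 4 samples. The same check was made on 19 FGF genes, and chance flags about 1 in 20 groups. Fgfr1 in that library was still above every control, and without it the Fgfr1 call was kept.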

How the results depend on the processing

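Results were recomputed under 17 alternatives, 2 of them (an adipocyte score as a covariate, and limma-voom with a mean of at least 0.1 FPKM) chosen after seeing the data. Of the 11 called FGF genes, 4 kept direction and call in all that were run, 0 reversed, and 7 lost the call in some. The 4 include Fgf7, which passed the filter through the libraries labelled Foxl2-LSL. Across the 7 fits without 1 library, the called FGF genes numbered 4 to 10, the ligands 2 to 4, the receptors and binding protein 1 to 3, the feedback genes 1 to 5 and the related pathway genes 17 to 27, against 11, 4, 3, 4 and 27. Fewer samples enter those fits. With a mean of at least 5 FPKM, 5 of 9 FGF genes were called, beside 3980 of all 9476 genes in that fit. Among them were 0 ligands. That filter left only Fgf1 among the ligands, with a limma p of 0.171 before adjustment (0 ligands under 0.05). At the usual filter limma-voom called 4 of 7 ligands, beside 39.7% of all genes. Over the fits without 1 library, uncalled genes that changed sign ranged from -0.10 to 0.28 (Foxl2), -0.0795 to 0.43 (Fgf9), -0.0509 to 0.34 (Spred2) and -0.37 to 0.0118 (Etv5) on the log2 scale; the cause was not tested. Fitting the replicate block (numbers 1, 2 and 4 only), limma called 3243 of all 13334 tested genes and 5 of the 19 FGF genes, similar shares. The 5 were 2 ligands, 1 receptor and 2 feedback genes. Among the 70 related genes 16 were called. The correlation of same-numbered libraries' deviations was 0.228, -0.0588 and -0.0587 for numbers 1, 2 and 4. Only number 1 correlated best with its own number. The labels do not say whether the numbers pair animals, and so few libraries cannot decide it. Few fragments limit some genes below the filter, such as Fgfr4 with as few as 7 in a library. Others below it were better counted, such as Fgf12 with 113 to 353 fragments per library.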
